A study of Mus musculus with 2 samples.

Results

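The 10 genes described here encode proteoglycans (Dcn, Lum, Bgn, Vcan and Hspg2), an enzyme that makes hyaluronan (Has2), the adhesive glycoprotein fibronectin (Fn1) and the matricellular proteins Thbs1, Tnc and Sparc. They were picked by gene symbol from the 32285 genes of the count matrix. All 10 were found, and 9 of them passed a floor of 10 CPM (UMIs of the gene per 1000000 UMIs of the cells) over the summed cells of the 4 groups. Lum lay under that floor and is described by its UMIs.

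The study grew mouse aortic vascular smooth muscle cells (VSMCs) of C57BL/6 mice and compared cells of young mice (12 weeks) and of old mice (58 to 78 weeks) with young cells given 1e-07 M angiotensin II (AngII) for 48 hours and with old cells transfected with siRNA against Piezo1 (siPiezo1) at 20 nM by the labels, while the study's text also names a higher dose. The cells were bought from vendors, and nothing in the labels says how many mice stand behind a group. The labels also name a non-targeting siRNA pool without saying which group received it. The study's text mentions it for old cells in a protein comparison, and does not state whether the old cells of tag 2 received it. The 4 cultures were stained with hashtag antibodies, pooled and sequenced as 1 droplet library for genes and 1 for hashtags.

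Each group is therefore 1 culture. No test between groups was possible. Every interval below is a 95% counting interval that leaves out the spread between cells, cultures, animals and libraries. No label pairs a hashtag with a group. The tags are named here by the numbers beside the cells in the study's schematic: tag 1 young, tag 2 old, tag 3 young + AngII and tag 4 old + siPiezo1. The tag number leads each value because only the number is read from the files.

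A barcode with at least 2218 UMIs and 200 genes was taken as a cell, which gave 13045 cells with a median of 7915 UMIs. No cell barcode occurred more than once. A cell belonged to a tag if that hashtag alone passed its cutoff, which held for 3144 cells of tag 1, 497 of tag 2, 1500 of tag 3 and 1529 of tag 4. Another 5307 cells (40.7%) passed no cutoff and 1068 passed several. The summed UMIs per tag ran from 5577355 in tag 2 to 24120561 in tag 1. The tags stood apart in ways beyond their group names. Cells with Y-linked but no Xist UMIs made up 54.1% of tag 1 and 55.5% of tag 3, against 19.5% of tag 2 and 13.8% of tag 4, while cells with Xist but no Y-linked UMIs made up 63.0% of tag 2 and 66.8% of tag 4. Age and the sex of the source animals cannot be told apart in the pooled values, so each comparison is also given within both kinds of cell. Few cells of the young tags had Xist alone, 4.90% of tag 1 and 6.27% of tag 3. Whether those cells carry the wrong tag was not tested, so the 2 kinds do not separate age from sex. The median mitochondrial share was 0.224% in tag 3 and 1.08% to 1.86% in the other tags. The 8 interferon markers summed to 2826 CPM in tag 1 and to 75.8, 290 and 88.9 in tags 2, 3 and 4. Piezo1 had 89.6 CPM in tag 2 and 86.9 in tag 4, so its level does not check the label of the siRNA group.

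The cells carried smooth muscle transcripts. The 9 contractile markers examined, Acta2 and Tagln among them, summed to 1321, 2140, 1491 and 1022 CPM in tags 1 to 4. The 6 endothelial markers summed to between 4.49 and 9.04 CPM, the 6 macrophage markers to between 6.15 and 11.7 and the 8 epithelial or mesothelial markers to between 7.64 and 13.4, with Cdh5, Vwf, Ptprc, Adgre1, Epcam and Krt5 under 1 CPM in every tag. The fibroblast list is less clear because 2 of its 7 genes are Dcn and Lum. Its other 5 markers summed to between 37.5 CPM in tag 2 and 76.2 in tag 1, and Pi16, Clec3b and Col14a1 were under 1 CPM in every tag.

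The matrix of the arterial wall is more than collagen and elastin. Small leucine-rich proteoglycans such as decorin, lumican and biglycan sit on collagen fibrils and shape how they assemble, versican binds hyaluronan into a hydrated pericellular coat, and perlecan (Hspg2) is the heparan sulfate proteoglycan of the basement membrane around each muscle cell. Matricellular proteins (thrombospondin-1, tenascin-C, SPARC) do little to hold the wall up and instead modulate how cells attach, migrate and divide, and smooth muscle cells that leave the contractile state in culture or in injured arteries are known to make much of this material.

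Dcn (ENSMUSG00000019929, chr10:97479609-97518143, plus strand; all gene positions are those of GENCODE on GRCm38) encodes decorin. It was lowest in tag 1 at 448 CPM, followed by 506 in tag 2, 669 in tag 3 and 676 in tag 4. The 2 treated cultures were therefore the 2 highest, and their intervals (656 to 682 and 664 to 689) overlapped. Among cells thinned to 5000 UMIs, the median cell held 1 Dcn UMI in tags 1 and 2, 3 in tag 3 and 2 in tag 4. A few cells held many. In tag 4 the fullest cell held 57, and the variance was 4.90 times the mean, against 2.91 in tag 1, 4.36 in tag 2 and 2.93 in tag 3.

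Lum (chr10:97565128-97572703, plus strand) encodes lumican and lies 47.0 kb downstream of Dcn on the same strand. It was scarce. Tag 1 held 34 UMIs (1.41 CPM), tag 2 13 (2.33), tag 3 21 (1.41) and tag 4 100 (6.21). The interval of tag 4 (5.05 to 7.55 CPM) lay above the other 3, which overlapped one another. A Lum UMI was seen in 5.23% of tag 4 cells and in 1.05% to 1.81% of the cells of the other tags. Free RNA in the barcodes with 1 to 100 UMIs held Lum at 5.73 CPM on 12 UMIs, above its 2.77 CPM over the cells. No cell type known to lack the gene was at hand. The shares of cells with a Lum UMI therefore have no background to be read against and do not show which cells express it. The next genes along the cluster, Kera and Epyc, are further members of the small leucine-rich family. Kera had 0 UMIs in all 4 tags and Epyc had 1 in tag 3, 1 in tag 4 and 0 in the others.

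Bgn (chrX:73483602-73495933, plus strand), which encodes biglycan, varied least. Its level was 848 CPM in tag 1, 745 in tag 2, 715 in tag 3 and 719 in tag 4, a range of 1.19-fold. Only tag 1 stood clear of the others, since the intervals of tags 2 and 4 and of tags 4 and 3 overlapped. At 5000 UMIs Bgn was found in 92.9% to 96.2% of cells and its variance was 1.52 to 1.63 times its mean.

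Vcan (chr13:89655312-89742509, minus strand), which encodes versican, had 233 CPM in tag 1, 253 in tag 2, 183 in tag 3 and 239 in tag 4. It was lowest in tag 3, where the interval (176 to 190) lay below all others. Hspg2 (chr4:137468769-137570630, plus strand) showed the opposite, with its highest level, 126 CPM, in tag 3 and between 101 and 105 in the other tags, whose neighbouring intervals overlapped. Its counts were close to Poisson from cell to cell, with a variance of 1.02 to 1.17 times the mean.

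Has2 (chr15:56665627-56694539, minus strand) encodes a hyaluronan synthase of the plasma membrane. It had 255 UMIs in tag 1 (10.6 CPM), 83 in tag 2 (14.9), 380 in tag 3 (25.4) and 148 in tag 4 (9.19). Tag 3 stood above the other 3 tags. At 5000 UMIs a Has2 UMI was found in 9.75% of tag 3 cells and in 3.96% to 4.83% of the cells of the other tags. The free RNA held Has2 at 23.4 CPM, above its 14.3 over the cells. It was also above the cells for Hspg2 (154 and 110 CPM), Tnc (674 and 573), Fn1 (492 and 466) and Thbs1 (1696 and 1680). For Dcn, Bgn, Vcan and Sparc it was below. The share of free RNA in each tag was not measured, and its part in the levels of Has2 and the other members was not tested.

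Fn1 (chr1:71585520-71653200, minus strand) was lowest in tag 1, at 391 CPM, and had 490 in tag 2, 472 in tag 3 and 564 in tag 4. Tags 2 and 3 overlapped. Thbs1 (chr2:118111876-118127133, plus strand) was the most abundant of the 10 in 3 of the 4 tags, though levels of different genes from these 3′ counts also depend on how well each 3′ end is captured. Its level was 1169 CPM in tag 1, 1762 in tag 2, 2609 in tag 3 and 1554 in tag 4, and no 2 tags overlapped. The median cell at 5000 UMIs held 4, 7, 12 and 6 Thbs1 UMIs in tags 1 to 4.

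Tnc (chr4:63959785-64047015, minus strand) was higher in both old cultures than in both young ones. Its level was 374 CPM in tag 1 and 485 in tag 3, the young cultures, and 783 in tag 2 and 881 in tag 4, the old ones. Sparc (chr11:55394500-55423183, minus strand), which encodes a collagen-binding matricellular protein, did the reverse: 1925 CPM in tag 1 and 1322 in tag 3 against 817 in tag 2 and 754 in tag 4. For both genes the 4 intervals did not overlap. At 5000 UMIs the median cell held 9 Sparc UMIs in tag 1 and 3 in tag 2, and Sparc was found in 91.5% to 99.3% of cells of every tag. Tnc was more unevenly spread, with the fullest 10% of the cells holding 37.0% to 45.5% of all Tnc UMIs, against 23.4% to 29.4% for Sparc.

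**Figure D1:**
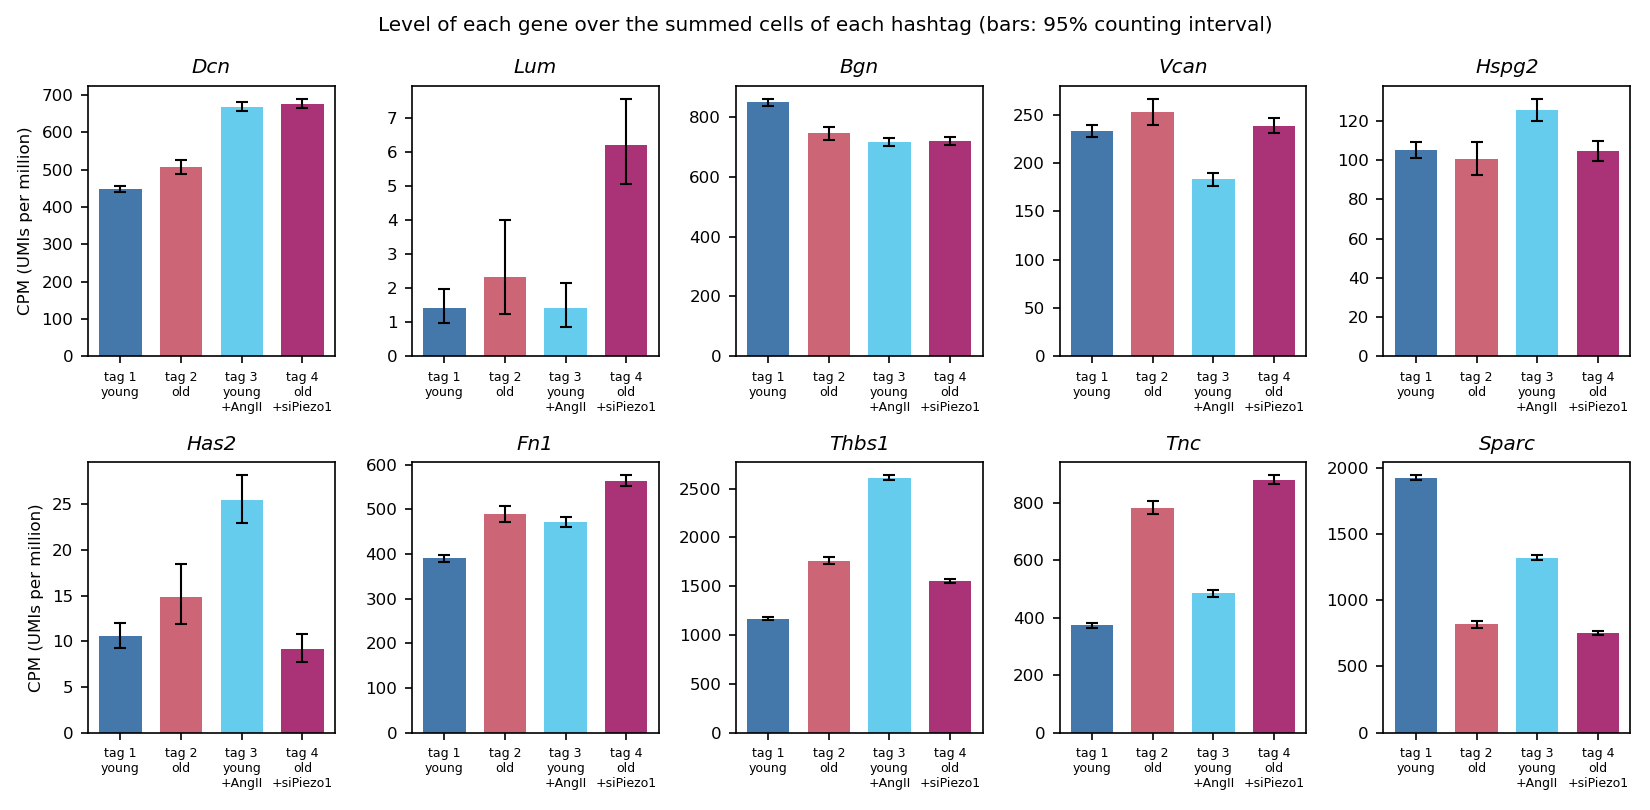
Each panel shows 1 gene, with the 4 hashtags on the x axis and CPM over the summed cells of the tag on the y axis, which starts at 0. Error bars are exact Poisson 95% intervals and cover counting error only. Tnc is higher in tags 2 and 4 (783 and 881 CPM) than in tags 1 and 3 (374 and 485), Sparc is lower, and Thbs1 and Has2 peak in tag 3 (2609 and 25.4 CPM).

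**Figure D2:**
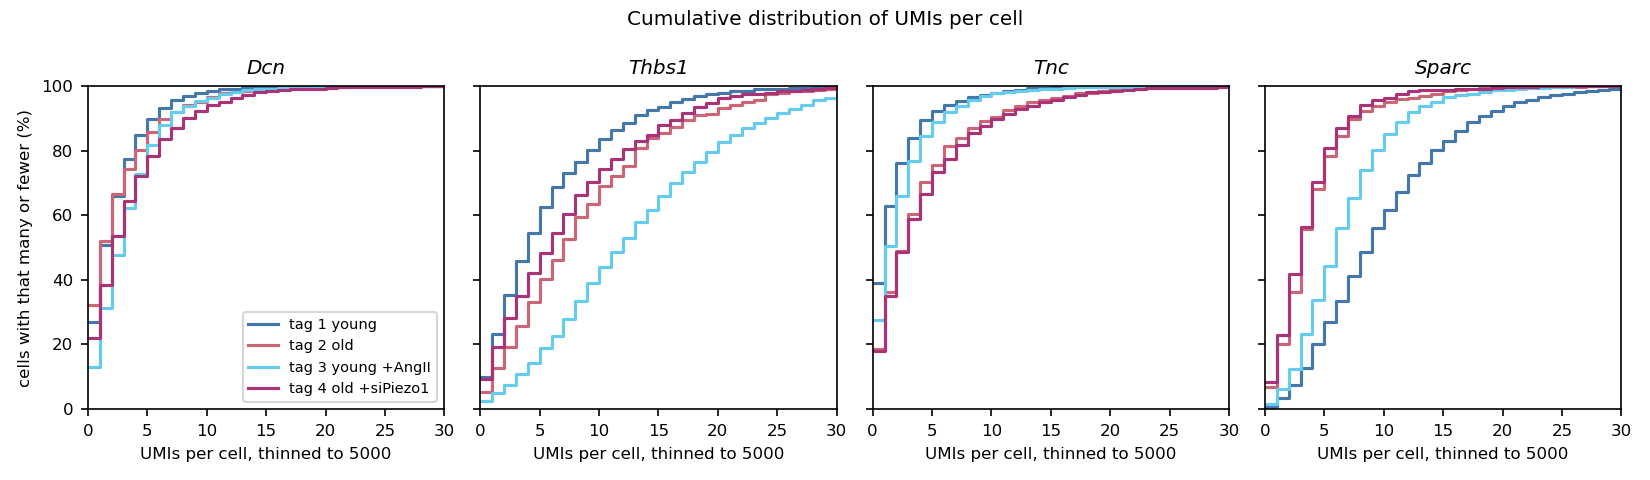
Each panel shows, for cells thinned to 5000 UMIs, the percentage of cells (y axis) with no more than the given number of UMIs of 1 gene (x axis), with a line for each tag. The Thbs1 curve of tag 3 lies to the right of the others (median 12 UMIs) and the Sparc curve of tag 1 does too (median 9), and both shifts run along the whole curve.

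Because Tnc and Sparc differed in opposite directions between the old and the young cultures, their promoters are shown, as RefSeq (GRCm38.p6) gives them. RefSeq promoters were at hand for 5 members (Bgn, Vcan, Hspg2, Tnc and Sparc). Tnc has 2 of them with overlapping windows, and the one farther upstream, at the GENCODE start, is shown. The 250 bases before the start were searched on both strands for TGANTCA (the site of AP-1), GGAATG (TEAD factors), GGGCGG (the GC box), CCAAT (the box of that name) and TATAAA (the letters of the TATA box, wherever they lie in the window). No match overlapped a match of another kind in these windows. Matches are in capitals in the sequences below, written 5′ to 3′ on the strand of the gene. The Tnc window is chr4:64047016-64047265 and the Sparc window chr11:55420081-55420330, both on the minus strand. The Sparc window lies inside the gene's full GENCODE span, since other annotated transcripts start farther upstream.
Tnc: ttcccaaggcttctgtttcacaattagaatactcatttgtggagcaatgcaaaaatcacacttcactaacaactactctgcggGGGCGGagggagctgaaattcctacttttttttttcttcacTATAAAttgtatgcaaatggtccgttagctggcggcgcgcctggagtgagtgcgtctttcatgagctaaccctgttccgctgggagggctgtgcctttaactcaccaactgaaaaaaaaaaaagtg
Sparc: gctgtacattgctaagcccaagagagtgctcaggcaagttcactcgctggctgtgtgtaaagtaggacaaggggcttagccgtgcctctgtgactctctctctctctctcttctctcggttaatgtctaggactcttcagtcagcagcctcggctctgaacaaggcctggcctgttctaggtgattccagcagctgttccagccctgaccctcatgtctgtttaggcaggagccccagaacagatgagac
The Tnc window held 1 GC box and 1 TATAAA, the latter at bases -126 to -121 from the start. The overlapping window of its second start (chr4:64046937-64047186) held the same sites, with TATAAA at -205 to -200. That window also held the letters TATATAA nearer to its start, which the search for exact letters did not count. The Sparc window held none of the 5 motifs. Across 32536 different promoter windows of this length, 33.0% held the GC box and 12.3% held TATAAA. The other windows differed again: Hspg2 had 5 GC boxes and a GC content of 70.0%, Bgn had 3 (of which 2 overlap), and Vcan had 2 GC boxes and 1 CCAAT box. No window of the 5 members held the AP-1 or the TEAD letters, which occur in 6.73% and 12.6% of all windows. These matches describe letters and say nothing of which factor binds.

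The comparison of old with young cells (tag 2 against tag 1) sets single cultures side by side. Their sex and interferon markers differ along with age. Of the 9 members tested, Tnc and Thbs1 were past 1.5-fold higher in tag 2 and Sparc was past 1.5-fold lower. Among all 8463 genes over the floor, 7.93% were past that fold higher and 10.5% lower (18.4% in either direction). The ratio was 2.10 for Tnc (2.02 to 2.17), 1.51 for Thbs1 (1.47 to 1.54) and 0.425 for Sparc (0.412 to 0.438). Thbs1 lay just past the fold, and was short of it in 6 of 12 alternatives (down to 1.26). Has2, at 1.41 (1.09 to 1.81), was the nearest short of it. Fn1 (1.25), Dcn (1.13), Vcan (1.08) and Bgn (0.878) differed by less than the fold with intervals that left out 1, and the Hspg2 interval held 1 (0.873 to 1.05). The median log2 ratio of the 9 members was 0.17, against 0.03 over all genes tested.

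These ratios were not the same in both kinds of cell. In cells where Y-linked UMIs were seen without Xist (97 of tag 2 and 1700 of tag 1), the ratio was 2.63 for Tnc and 1.43 for Thbs1. In cells where only Xist was seen (313 and 154), Tnc came to 1.34 and Thbs1 to 1.26, both under the fold, and 10.9% of all genes were past it in either direction. Sparc was past the fold in both, at 0.431 and 0.560. The interferon markers are high in tag 1, as Sparc is, and their part in the Sparc difference was not tested. Fn1 had ratios of 1.39 and 1.01 and Has2 of 1.85 and 0.803. Both kinds kept Tnc and Thbs1 higher and Sparc lower in tag 2, and the part of cell sex in the size of the differences was not tested. The Xist-only cells of tag 1 had 584 CPM of Tnc and 1273 of Sparc. Both values lay between those of tag 1 and tag 2 over all their cells.

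AngII-treated young cells were compared with young cells (tag 3 against tag 1). Has2 and Thbs1 were past 1.5-fold higher, and no member was past it lower. The background was 6.89% of genes higher and 7.89% lower (14.8% in either direction). The ratio was 2.41 for Has2 (2.05 to 2.83) and 2.23 for Thbs1 (2.20 to 2.27). Dcn, at 1.49 (1.45 to 1.53), and Sparc, at 0.687 (0.675 to 0.698, with the fold at 0.667), lay just short of it. Tnc (1.30), Fn1 (1.21) and Hspg2 (1.2) were higher by less, and Vcan (0.785) and Bgn (0.843) lower. Thbs1 and Tnc are both matricellular, yet tag 3 had the highest Thbs1 and the second lowest Tnc of the 4 cultures.

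In cells with Y-linked UMIs alone (833 and 1700) the ratio was 2.25 for Has2, 2.36 for Thbs1 and 1.58 for Dcn. In cells with Xist alone (94 and 154) no member was past the fold, while 7.21% of all genes were past it higher and 7.98% lower in the same cells. Has2 came to 1.21 (0.647 to 2.26), Thbs1 to 1.36 (1.28 to 1.44) and Dcn to 1.21 (1.09 to 1.35). Dcn, Has2 and Thbs1 were above 1 in both. The low mitochondrial share of tag 3 (0.224% against 1.08% in tag 1) moves with these values, and its part in them was not tested. Among cells with 1% to 15% of mitochondrial UMIs, the ratio was 2.96 for Has2, 2.15 for Thbs1, 1.53 for Tnc, 1.45 for Dcn, 1.22 for Fn1, 1.14 for Hspg2, 0.832 for Bgn, 0.970 for Vcan and 0.644 for Sparc. Has2, Tnc, Sparc, Fn1 and Bgn were farther from 1 than over all cells, while Thbs1, Dcn, Hspg2 and Vcan were nearer to it. This limit left out most cells of tag 3, whose median share was 0.224%.

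Old cells with siPiezo1 were compared with old cells (tag 4 against tag 2). Only Has2 was past 1.5-fold, at 0.617 (0.469 to 0.818), that is lower in tag 4, on 148 and 83 UMIs. Few genes of any kind passed that fold here, 1.8% higher and 1.0% lower (2.8% in either direction). Dcn had a ratio of 1.34 (1.28 to 1.39), Fn1 of 1.15 and Tnc of 1.13, Thbs1 of 0.882 and Sparc of 0.923 (0.892 to 0.955). The intervals of Bgn, Vcan and Hspg2 held 1. Lum was under the floor, and its ratio was 2.66 (1.49 to 5.18). Has2 came to 0.556 and 0.558 in the 2 kinds of cell, and Dcn to 1.68 and 1.27. Thbs1, Tnc, Vcan, Bgn and Sparc lay on opposite sides of 1 in them. Of these, only Thbs1 and Tnc had intervals that left out 1 in both kinds.

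**Figure D3:**
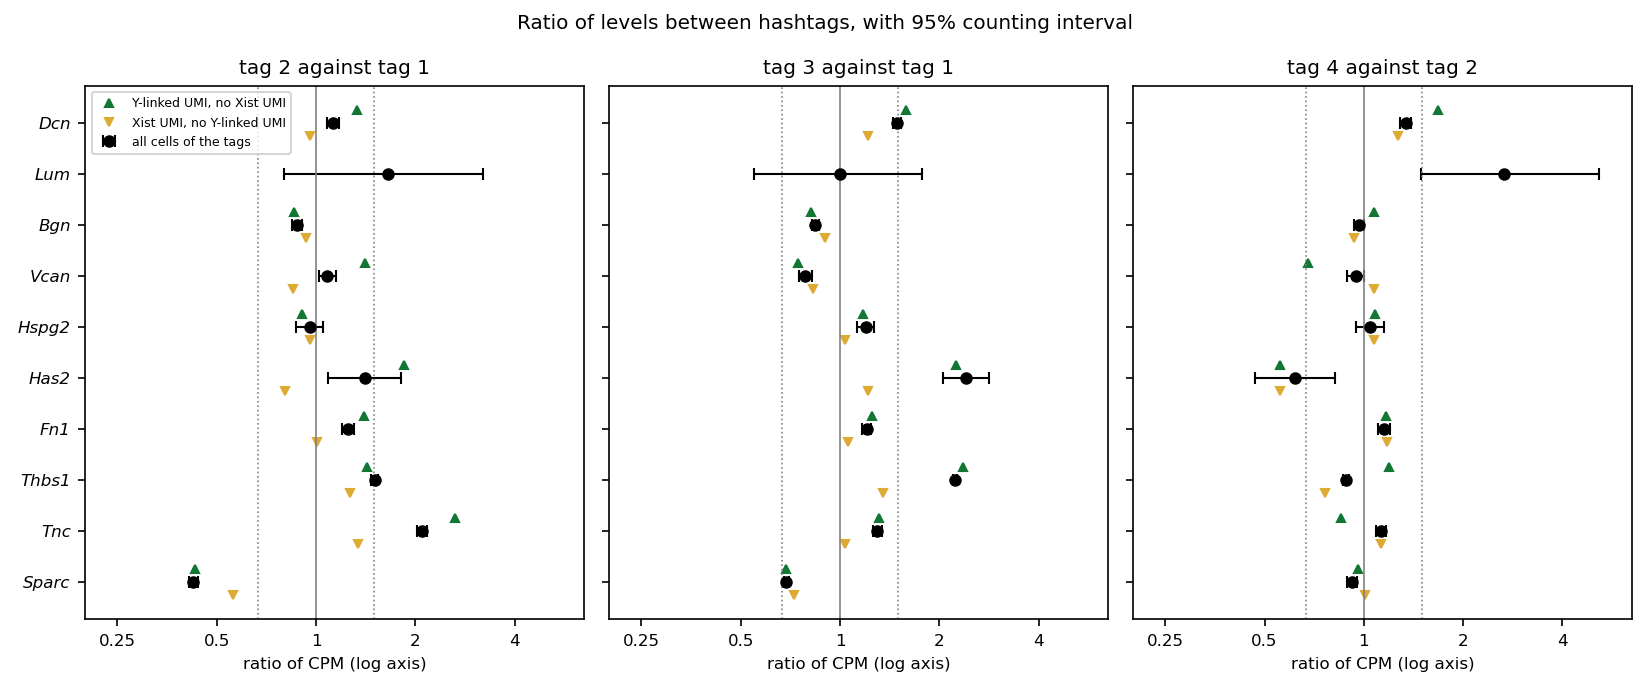
Each panel shows 1 comparison, with the ratio of CPM on a log axis and the genes on the y axis. Black points are the ratio over all cells of both tags with its 95% counting interval, triangles are the ratios within cells with only Y-linked or only Xist UMIs (Lum left out), the solid line is 1 and the dotted lines are the 1.5-fold limits. Sparc is left of the lower limit in tag 2 against tag 1 in all 3 kinds of point (0.425, 0.431 and 0.560), and in tag 3 against tag 1 the Xist-only points of Has2 and Thbs1 (1.21 and 1.36) lie inside the limits that the others pass.

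Around the members, 8 lists of related matrix genes held 139 genes found in the matrix (the members included), of which 71 passed the floor. Each count below is to be read beside the shares of all 8463 genes tested. In tag 2 against tag 1, 7.93% were past the fold higher and 10.5% lower. The shares were 6.89% and 7.89% in tag 3 against tag 1, and 1.8% and 1.0% in tag 4 against tag 2. The enzymes that build and sulfate glycosaminoglycan chains were the largest list. Of 27 tested, 3 were past the fold higher in tag 2 against tag 1 (Xylt1, Chsy1 and Ndst3) and 2 lower (Csgalnact1 and Sulf1), 3 were higher and 0 lower in tag 3 against tag 1, and 2 were higher and 0 lower in tag 4 against tag 2. Ndst3, which sulfates heparan chains, had 9.41 CPM in tag 1, 29.6 in tag 2 and 57.1 in tag 4. Chsy1, a chondroitin chain synthase, had 19.8 CPM in tag 1 and 44.8 in tag 3.

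The proteases that cleave versican and related proteoglycans formed a short list. Of 3 ADAMTS genes tested, 2 were past the fold lower in tag 2 against tag 1 (10.5% of all genes). In tag 3 against tag 1, 2 were lower (7.89% of all genes). Adamts5 had 354 CPM in tag 1 but 32.5 in tag 2 and 90.3 in tag 3, ratios of 0.0917 and 0.255 to tag 1. In tag 4 against tag 2, Adamts1 was higher at 1.64 (84.7 and 51.6 CPM), and Adamts4, which was under the floor over the 4 tags, had a ratio of 0.672, short of the fold. So had Hs3st1, an enzyme of heparan sulfation, at 0.687.

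The list of thrombospondins, tenascins and other matricellular genes had 11 tested, Fn1 among them. Thbs1, Tnc and Spp1 (osteopontin) were past the fold higher and Sparc, Fstl1, Ccn2 and Ccn5 lower in tag 2 against tag 1. In tag 3 against tag 1, Thbs1, Ccn2 and Spp1 were higher and Fstl1, Ccn4 and Ccn5 lower. Ccn5, a growth-restraining CCN family protein, had 72.0 CPM in tag 1, 1.61 in tag 2 and 5.76 in tag 3. In tag 4 against tag 2 only Ccn2 was past the fold, at 0.620 (45.7 and 73.7 CPM).

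In the list of hyaluronan genes, 9 were tested. In tag 3 against tag 1, Has2 and the hyaluronan receptor Cd44 were past the fold higher and Hmmr and Tnfaip6 lower. In tag 2 against tag 1, 0 were higher and 3 lower (Cemip, Hmmr and Layn). In tag 4 against tag 2, Tnfaip6, whose protein crosslinks hyaluronan, was higher at 1.71 (17.8 and 10.4 CPM) and Has2 lower. Of 4 small leucine-rich proteoglycans tested, Prelp and Tsku were lower in tag 2 against tag 1, with 4.30 and 30.8 CPM for Prelp, and none was past the fold in the other comparisons. Ogn, under the floor over the 4 tags, had 3.21 CPM in tag 3 and 13.7 in tag 1. Vcan was the only member of the lectican and link protein list over the floor.

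Of 10 heparan sulfate proteoglycans tested, 0 were past the fold higher and 3 lower in tag 2 against tag 1 (Agrn, Sdc2 and Sdc4), 2 were higher and 2 lower in tag 3 against tag 1, and none passed in tag 4 against tag 2. Gpc1 had 24.2 CPM in tag 3 and 9.25 in tag 1. Of 6 receptors of fibronectin and thrombospondin tested, Itga5 alone was past the fold, lower in tag 2 and higher in tag 3 against tag 1. The integrin genes Itga3 and Itga4, under the floor over the 4 tags, had 14.0 and 15.6 CPM in tag 2 against 4.10 and 5.02 in tag 1, and Itga9 had 16.3 in tag 3 and 6.76 in tag 1.

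The cells were then clustered with the 10 members left out of the variable genes, which gave 13 clusters, 12 of them with at least 100 cells. What follows describes those clusters, and no cluster was tested against another. Across the 12, 8 members varied over 3-fold (7 of the 9 tested, and Lum), and Dcn (2.02-fold) and Bgn (1.59-fold) did not. Such a range was common, since 59.0% of all 8463 genes tested passed it. Cluster 8 (461 cells, led by Prl8a9, Crct1 and Maff) had the lowest level of 7 members, among them Vcan at 52 CPM, Hspg2 at 28.6, Fn1 at 164 and Tnc at 168. Its cells were shallow, with a median of 0.415 times the UMIs of all cells. Without cluster 8, 5 members varied over 3-fold: Has2 (9.26), Lum (8.38), Tnc (6.06), Thbs1 (4.19) and Sparc (4.13). That is 4 of the 9 tested, against 26.3% of all genes. The ranges of Has2 and Lum rest on few counts. The lowest Has2 level, in cluster 9, came from 13 UMIs (interval 1.92 to 6.17 CPM). The lowest Lum level, in cluster 7, came from 4 UMIs (0.232 to 2.18 CPM). Fn1 then varied 2.30-fold, and Vcan and Hspg2 by less. Cluster 4 (1294 cells) was made up of predicted doublets to 82.7%.

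The clusters followed the tags. Cluster 2 (1936 cells, led by the interferon-induced genes Cxcl9, Ifit3 and Ifit3b, interferon response-like) held 1734 cells of tag 1 and none of tag 2. Clusters 3 (led by Lce1g, Serpinb2 and Zfp804a) and 6 (led by Ccne2, Slfn9 and Ccne1, dividing-like by its marker levels) held 841 and 347 cells of tag 3. Among their cells with 1 tag, clusters 0 (led by Nxph1, Clu and Csf3), 1 (led by Hist1h1b, Mki67 and Kif23, dividing-like) and 5 (led by Cnn1, Gabrb1 and Acta2, smooth muscle contractile-like) held mostly tags 2 and 4. In cluster 5, 11.2% of the 250 cells with 1 tag were of tag 1 and 12.4% of tag 3. Most cells of clusters 0, 1 and 5 had no tag (1585 of 2483, 1370 of 2003 and 531 of 816). Cluster 9 (434 cells, led by Lmo7, Klra4 and Platr16) held 284 cells of tag 4 and 2 of tag 2. It had 3.61 CPM of Has2 (13 UMIs) and 666 of Fn1. Sparc was highest in cluster 2, at 2314 CPM, and had 560 in cluster 1. Thbs1 was highest in cluster 3 (2585 CPM), Tnc in cluster 5 (1161), Vcan in cluster 0 (347) and Has2 in cluster 6 (33.4). Within tag 1, the r of Sparc with the summed interferon markers across thinned cells was 0.35, against 0.09 to 0.12 in the other tags.

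Cells of the contractile cluster 5 carried more Thbs1 and Tnc than cells of cluster 0 with the same tag. In tag 2, Thbs1 had 2502 CPM in cluster 5 and 1457 in cluster 0, and Tnc 1170 and 735. In tag 4 the pairs were 2574 and 1572 for Thbs1 and 1330 and 932 for Tnc. Cluster 11 of tag 1 was high in both interferon and contractile markers. Its leading genes Cxcl10, Ifit3 and Oasl1 and 4 of the top 10 are of the interferon response. All 9 contractile markers were above the other cells, Cnn1 was in the top 10, and their sum was 3491 CPM. Predicted doublets made up 33.5% of the cluster. Against cluster 2 of tag 1, cluster 11 had Thbs1 at 2518 and 1087 CPM and Tnc at 1093 and 275, a ratio of 3.98 (3.71 to 4.26) on 160 and 1734 cells. Has2 was higher there too, at 18.1 and 9.06 CPM on 18 and 102 UMIs, a ratio of 1.99 (1.14 to 3.31). Across thinned cells the r of Thbs1 with the summed contractile markers was 0.20 (0.11 to 0.33 within single tags), the highest of the 10 members. High contractile markers did not always go with these genes. The shallow cluster 8 had the third highest contractile sum, 3056 CPM, with the lowest Thbs1 (387) and Tnc (168), and cluster 3, highest in Thbs1, had a contractile sum of 1703 CPM against 3846 in cluster 5.

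The other members did not follow the contractile cells in one direction. Vcan was lower in cluster 5 than in cluster 0, with 193 and 361 CPM in tag 2 and 145 and 297 in tag 4. Sparc was higher, with ratios of 1.80 in tag 2 and 1.62 in tag 4, yet in tag 1 cluster 11 had less Sparc than cluster 2 (1402 and 2337 CPM). Dcn had a ratio of 1.35 in tag 2 and 0.744 in tag 4, on opposite sides of 1.

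Dividing clusters of tags 1, 2 and 4 carried less of several members than the cluster of the same tag that they were set against. In tag 1, cluster 7 (539 cells of the tag, led by Cdkn3, Ckap2l and Plk1, with all 8 dividing markers above the other cells) had 607 CPM of Thbs1 against 1087 in cluster 2, 192 against 275 of Tnc and 340 against 457 of Dcn. In tag 4, Dcn had 464 CPM in cluster 1 and 867 in cluster 0, a ratio of 0.535, and Thbs1 had 1136 and 1572. Cluster 9 of tag 4, with a dividing marker sum of 137 CPM, was also below cluster 0, at 526 CPM of Dcn and 1109 of Thbs1. Lower levels than in cluster 0 were thus not particular to the dividing cells of that tag. In tag 2, Vcan had 208 and 361 CPM in clusters 1 and 0, while Thbs1 (0.965, interval 0.913 to 1.02) and Tnc (1.01) had intervals that held 1. In tag 3 the dividing cluster 6 and cluster 3 were alike in Dcn (709 and 699 CPM), Thbs1 (2803 and 2716) and Sparc (1390 and 1404), and Has2 was higher in the dividing one, at 33.6 and 20.3 CPM. Hspg2 had intervals that held 1 in all 4 pairs with a dividing cluster.

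**Figure D4:**
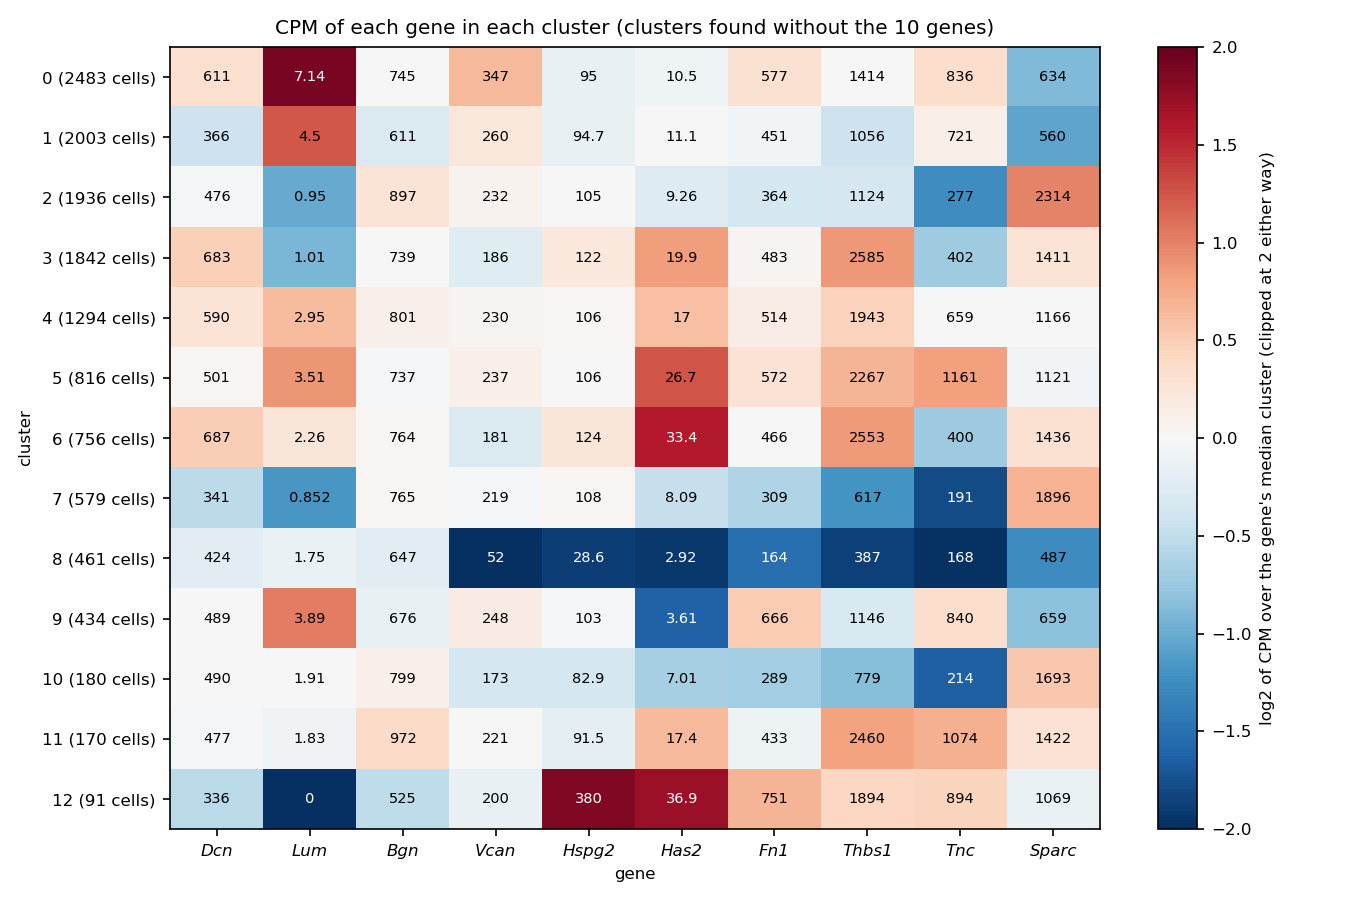
Rows are the 13 clusters with their numbers of cells, columns the 10 genes, and the printed values are CPM over the summed cells of the cluster. The colour is the log2 of that level over the gene's median across clusters. Tnc (1161 and 1074 CPM) and Thbs1 (2267 and 2460) are high in clusters 5 and 11, Thbs1 is highest in cluster 3 (2585), Sparc (2314) in cluster 2, and cluster 8 is low in Vcan, Hspg2, Fn1, Thbs1 and Tnc.

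One small cluster stood out for perlecan. Cluster 12 (91 cells, led by Zfp804a, Gm12153 and Gm12381, 46 of them tag 3) had 380 CPM of Hspg2, 751 of Fn1 and 36.9 of Has2, each the highest value of the 13 clusters, and no Lum UMI. The Has2 value rests on 17 UMIs and its interval (21.5 to 59.0) held the value of cluster 6. Its cells had a median of 4179 UMIs.

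The tags were also compared inside single clusters, where both tags had at least 40 cells. Cluster 4, mostly predicted doublets, is among them in each comparison. For tag 2 against tag 1 the clusters were 0 and 4, and the ratios follow in that order. Tnc had 0.816 (0.731 to 0.913) and 0.939 (0.845 to 1.04), the second with an interval that held 1. Sparc had 0.847 and 0.793, short of the fold, and Thbs1 had 1.10 and 1.42. Vcan had 0.994 and 0.637, and Fn1 0.704 and 0.885. The tag 1 cells of cluster 0 numbered 53 of 3144. For tag 3 against tag 1 (clusters 3, 4 and 6), Thbs1 ran from 1.18 to 1.56, Tnc from 1.08 to 1.38 and Sparc from 0.822 to 0.836. For tag 4 against tag 2 (clusters 0, 1, 4 and 5), Tnc ran from 1.14 to 1.27, all above 1, while Dcn ran from no difference in cluster 5 to 1.82 in cluster 0. Has2 had ratios of 0.774 in cluster 0, 0.504 in cluster 1, 1.02 in cluster 4 and 0.891 in cluster 5. Over all cells of these tags it was 0.617. Only the Has2 interval of cluster 1 (0.292 to 0.883) left out 1. How many of these cells carry the wrong tag was not tested.

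Across 5652 thinned cells with 1 tag, centred within each tag, Thbs1 and Tnc were the pair of members that varied together most. Their Pearson r of log values was 0.32 (0.40, 0.24, 0.20 and 0.33 within tags 1 to 4), and no other of the 45 pairs reached 0.2 over the 4 tags together. Points are cells of 1 library that share depth after thinning, so r is a description. In tag 1 the mean cell held 0.828 Tnc UMIs if it held 0 to 2 of Thbs1 and 3.86 if it held 13 or more. In tag 4 the same step went from 2.62 to 6.78. In tag 3, where Thbs1 was highest, it went from 1.66 to 2.92. Thus the mean Tnc of tag 3 cells with 13 or more Thbs1 UMIs (interval 2.79 to 3.06) was close to that of tag 4 cells with 0 to 2 (2.46 to 2.78). Both intervals leave out the spread between cells. Bgn with Thbs1 (0.17), Bgn with Sparc (0.12) and Thbs1 with Sparc (0.11) came next. Thbs1 with Sparc differed between tags, at 0.24 in tags 2 and 4, 0.17 in tag 3 and -0.03 in tag 1. The lowest of all was Vcan with Thbs1, at -0.09.

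**Figure D5:**
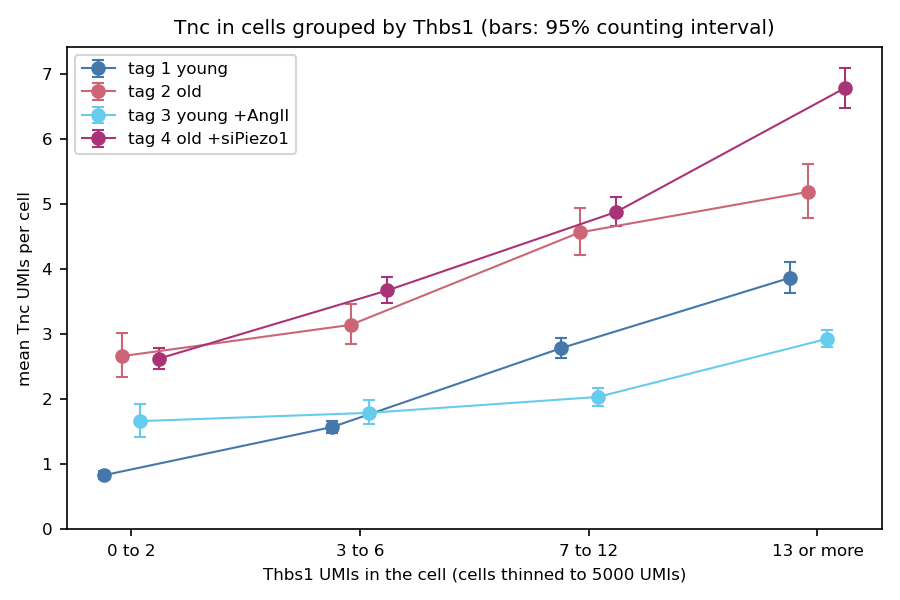
Cells thinned to 5000 UMIs are binned by their Thbs1 UMIs (x axis), and the mean number of Tnc UMIs per cell is on the y axis, with a line for each tag and 95% counting intervals. In each tag the mean is highest in the bin with 13 or more Thbs1 UMIs (3.86, 5.19, 2.92 and 6.78 in tags 1 to 4).

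The genes most like each member across cells, among those with at least 50 CPM, differed from member to member. Sparc was closest to Col1a1 (r 0.36), Col1a2 (0.36) and Lox (0.34), the genes of type I collagen and of an enzyme that crosslinks it. Thbs1 was closest to Tnc (0.32), Actb (0.31) and Cemip (0.30), and Tnc to Thbs1, Lingo2 (0.31) and Ptgs2 (0.25). Dcn was closest to genes of another kind, Saa3 (0.30, serum amyloid A), Ccl2 (0.21, a chemokine) and Fth1 (0.18, ferritin heavy chain). Bgn was closest to Thbs1, Col1a2 (0.16) and Igfbp7 (0.14) and Slit3 (0.16) and Pcdh7 (0.16) were among those closest to Vcan. For Fn1 the closest were Pcdh9 (0.15), Ank3 (0.14) and Pcdh7 (0.13). The best r was 0.099 for Hspg2 (with Mical2), 0.080 for Has2 (with Thbd) and 0.085 for Lum, whose closest gene was its neighbour Dcn. Counts this sparse give no finding at such r. Vcan and Fn1 also had an r of 0.19 and 0.18 with the number of genes detected in the cell. Thbs1 and Tnc had an r of 0.15 and 0.10 with the log of the cell's UMIs before thinning. For Sparc the r with the log of the mitochondrial share was -0.16. The part of these cell properties in the pairs above was not tested.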

How the data were processed

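Cultured mouse VSMCs of 4 groups were hashed, pooled and sequenced as 1 gene expression and 1 hashtag library (10x Genomics 3′ kit). The deposited matrix, written by Cell Ranger 4 (per the file headers), holds raw UMI counts made by the authors over 2472397 unfiltered barcodes, 32285 genes and 4 hashtags. Which genome build and annotation stand behind the counts is not given in the sources used, and the authors' own filters and clusters were not used.

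A cell had at least 200 genes and 2218 UMIs, which is 1 in 10 of the 99th percentile over the 10000 deepest barcodes. Tag cutoffs were 36, 52, 61 and 41 hashtag UMIs for tags 1 to 4. The median UMIs of a cell's own hashtag were 364, 76, 113 and 67 in tags 1 to 4, and the same hashtags had medians of 10, 15, 31 and 20 in cells with no tag, so the separation was weak for tags 2 to 4. Cells with no tag or several entered only the clusters. Counts were summed per tag (1 culture each) and divided by all gene UMIs of its cells. Levels carry exact Poisson intervals, ratios exact binomial (Clopper-Pearson) intervals conditional on the sum, and all intervals cover counting error only. A gene was called past 1.5-fold among genes with at least 10 CPM over the 4 tags, with no p-value. The ratio step was run on simulated Poisson counts with known ratios, where 95.3% to 95.5% of the intervals held the true ratio. Such counts have only the spread that the intervals assume, and several members vary more from cell to cell. The run therefore cannot say how well the intervals hold for these cells. Levels are not divided by length because the kit reads 3′ ends.

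Doublets were predicted with Scrublet in scanpy 1.11.5 (expected rate 0.1, 3058 cells or 23.4%) and kept, with an alternative that leaves them out. Clusters were found with Seurat 5.3.0 (R 4.3.3), from 2000 variable genes less the members and 30 principal components, at a resolution of 0.8, and named only from markers. Cells were thinned to 5000 UMIs to compare shares and correlations, which left out 747, 21, 136 and 114 cells of tags 1 to 4. Free RNA was read from 1299325 barcodes with 1 to 100 UMIs. Python 3.11.15, numpy 2.4.6, scipy 1.17.1 and pandas 2.3.3 were used.

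The members, the lists of related genes and the markers were chosen with earlier results of these data known. Genes were named by rule: the 10 members, the up to 3 list genes per direction and comparison farthest from a ratio of 1 with at least 10 CPM in 1 of both tags, the 3 genes most like each member, the leading genes of clusters, Kera and Epyc as neighbours, and genes that check the tags. The other list genes named are those counted as past the fold in lists where few were. One gene that this rule names is not reported here.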

Additional observations from a re-analysis of the deposited data

Results flagged for a closer look

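For 3 members and comparisons, the cells with only Y-linked and the cells with only Xist UMIs lay on opposite sides of a ratio of 1, with intervals that left out 1 in both. Vcan had a ratio of tag 2 against tag 1 of 1.4 (1.26 to 1.56) in the Y-linked cells and 0.854 (0.758 to 0.964) in the Xist cells. Thbs1 had a ratio of tag 4 against tag 2 of 1.19 (1.13 to 1.26) and 0.760 (0.738 to 0.783). Tnc had a ratio of tag 4 against tag 2 of 0.853 (0.791 to 0.921) and 1.13 (1.08 to 1.18). The difference between the kinds of cell was not tested, since each rests on 1 culture per tag and counting intervals leave out the spread between cultures.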

How the results depend on the processing

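No paired analysis was possible because each group is 1 culture and the results come from no test. Of 12 alternatives tried for every ratio, 1 (naming each cell by its highest centred log-ratio) was chosen after seeing the data. For tag 2 against tag 1, the count of members past the fold went from 3 to 1 in cells with only Xist UMIs, as the share of all genes went from 18.4% to 10.9%. It was 2 with the own tag at least 3 times the next (17.7%), higher tag cutoffs (17.0%), a doubled UMI minimum (18.1%) and median scaling (18.2%). With Has2 also past the fold, it was 4 without predicted doublets (23.8%), in cells with 1% to 15% of mitochondrial UMIs (20.3%) and by the centred log-ratio (17.9%). For tag 3 against tag 1, it went from 2 (14.8% of all genes) to 4 without predicted doublets (20.9%), to 4 in cells with 1% to 15% of mitochondrial UMIs (18.2%), to 4 with the mean of the cells' own CPM (17.2%), and to 0 in cells with only Xist UMIs (15.2%). For tag 4 against tag 2, it went from 1 (2.8%) to 0 with cells thinned to 5000 UMIs (5.21%), to 2 in cells with only Y-linked UMIs (12.3%) and to 0 with a fold of 2. The cause of these changes was not tested. The number of pairs with r of at least 0.2 went from 1 to 3 in tag 2 alone, 2 in tag 3 alone and 2 in tag 4 alone. The tag with the highest level was kept by all 10 members, except for Vcan with higher tag cutoffs, Tnc in Y-linked cells, and Dcn and Vcan in Xist cells. The count of 8 members varying over 3-fold across clusters held at 2 other resolutions, with all list genes left out of the variable genes and without predicted doublets, and went to 5 without the shallow cluster 8, which was left out after seeing the data. Scaling by the median ratio shifted log2 ratios by 0.02, 0.06 and -0.01 in the 3 comparisons and brought Sparc in tag 3 past the fold. Thbs1 in tag 2 against tag 1 (1.51) was short of the fold in 6 of 12 alternatives: 1.36 with the own tag at least 3 times the next, 1.44 with higher tag cutoffs, 1.43 and 1.26 in Y-linked and Xist cells, 1.48 with that scaling, and just under 1.5 with a doubled UMI minimum. Across alternatives, Tnc in tag 2 against tag 1 ran from 1.34 to 2.71, Sparc from 0.370 to 0.560 and Thbs1 from 1.26 to 1.67. In tag 3 against tag 1, Thbs1 ran from 1.36 to 2.65 and Has2 from 1.21 to 2.96. Has2 in tag 4 against tag 2 ran from 0.385 to 0.719, and depth limits it (83 UMIs in tag 2) as it does Lum.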
